A study of Argopecten irradians with 2 samples.

Results

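Lectins are proteins that bind sugars. The unigenes described here were those whose Swiss-Prot description named a C-type lectin, a perlucin, a mannose receptor, a collectin, a galectin, a low affinity immunoglobulin epsilon Fc receptor, a lectican core protein (aggrecan, brevican or versican), CD209, a fucolectin or lithostathine. These words matched 57 of the 60308 unigenes of the bay scallop (Argopecten irradians) gill assembly, and 42 of them, those with at least 10 reads over both libraries, were kept, of 38391 unigenes with as many reads. The 15 others held between 1 and 9 reads each, and none of them was called.

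The study asked how the gills of this bivalve respond to palmitoleic acid (PA), a fatty acid that kills harmful algae. Scallops of the PA group were kept for 48 h in seawater with 80 mg/L PA dissolved in DMSO, and scallops of the control group for the same time with an equal volume of DMSO alone, so both groups carried the solvent. The animals came from a fish market and were acclimatized for 2 weeks at 10 °C, and their age and strain are not given in the sources used here. The labels describe gill RNA pooled from 18 scallops per condition, while the methods describe 3 pools of 6 scallops, and the deposited tables hold 1 library per condition. No difference given here has a replicate check.

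C-type lectins share a calcium-dependent carbohydrate recognition domain, and in invertebrates many of them are secreted or membrane-bound receptors that bind sugars on microbes and promote agglutination or uptake. Galectins bind beta-galactosides without calcium and are made in the cytoplasm and exported, and in bivalves they are known from haemocytes and from mucosal tissues such as the gill. The domain also occurs in proteins with other roles, such as the lecticans of vertebrate extracellular matrix, so a best hit to such a protein names a domain relative and not a function in the scallop. The unigenes came from a de novo assembly with no genome position. The lectins were 375 to 3190 bp long, with a median of 1114 bp, against 846 bp for all unigenes with at least 10 reads.

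Depth was 10305482 expected counts for the control and 10414545 for PA, and an expected count is written as a read in what follows. A unigene was called when the two-sided exact test of Audic and Claverie, adjusted over all 60308 unigenes, gave a false discovery rate (FDR) of at most 0.001 and the fold change of FPKM (fragments scaled by transcript length and library size) was at least 2. This test compares 2 libraries and not 2 conditions. Intervals are 95% exact intervals of the share of a unigene's reads in the PA library, and like all limits given here they cover counting error only. The median log2 fold change of all unigenes with at least 10 reads was 0.21, so a value of 0 lies slightly below the middle of the transcriptome. The 2 other scalings moved all values down, by 0.24 (TMM) and 0.22 (median of ratios), and lectin results that turn on this are named below. The gill label was checked against ciliated epithelium: axonemal dynein heavy chains, tektins, radial spoke heads and SPAG6 were all present, and no unigene was described as a cilia- and flagella-associated protein.

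Of the 42 lectin unigenes, 23 (54.8%) were called, where 24.0% of all unigenes with at least 10 reads were called. There were 14 higher in the PA library (33.3%, against 13.3% of all) and 9 lower (21.4%, against 10.7% of all). The median log2 fold change of the lectins was 0.09, with a range from -8.77 to 9.70, where a library listed at 0 entered as 0.01 FPKM. The lectins thus moved in both directions, and their median lay below the 0.21 of all unigenes. Under TMM scaling 11 were higher and 12 lower, against 10% and 14.0% of all unigenes, and under median-of-ratios scaling the counts were the same against 10.4% and 13.7%. Both scalings turned the sign of the lectins' median, to -0.15 and -0.13.

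The share called differed with annotation, depth and assembly over the whole transcriptome. Among unigenes with a Swiss-Prot entry, which every lectin here has, 30.3% were called, 17.7% higher and 12.6% lower. Among those with at least 50 reads, 16 of 26 lectins (61.5%) were called against 35.4% of all, with 11 higher (42.3%, against 19.9%) and 5 lower (19.2%, against 15.5%). Of the lectins with 10 to under 50 reads, 7 of 16 (43.8%) were called against 11.2% of all. The authors clustered the assembled transcripts by gene family with TGICL, and a contig is a member of such a cluster. Of these, 14 of the 19 lectin contigs (73.7%) were called, against 39.0% of all contigs. Of the 23 lectins outside clusters, 9 (39.1%) were called against 17.5%. These shares are descriptions, since contigs of 1 cluster are related and not independent. With the lectin contigs of each cluster summed, 15 of 33 clusters and single unigenes were called, 8 higher and 7 lower. The share of all clusters and single unigenes called after summing is not given, so this count has no like share beside it. By a fold change of 2 alone, with no test, 16 lectins were higher and 11 lower, against 27.3% and 19.0% of all unigenes. When the exact test of edgeR was given an assumed variation between pools, fewer calls were left. With a coefficient of variation of 0.2, 10 lectins were called against 9.82% of all unigenes, 5 of them higher (5.06% of all) and 5 lower (4.76% of all). With 0.4, 1 lectin was called against 1.60% of all, 0 higher (0.581% of all) and 1 lower (1.02% of all).

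**Figure D1:**
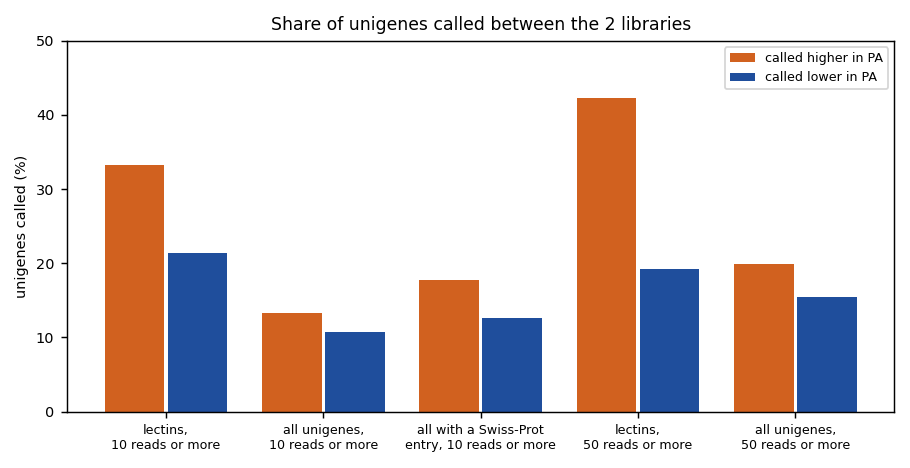
Percent of unigenes called higher (orange) or lower (blue) in the PA library, for the lectins and for the unigenes they are read against. With at least 10 reads, 33.3% of the lectins were higher and 21.4% lower, against 13.3% and 10.7% of all unigenes. Under TMM scaling the lectins divided into 11 higher and 12 lower, against 10% and 14.0% of all unigenes.

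The names were checked against the other annotation columns. A lectin word also stood in the Nr, KEGG or Interpro entry of 31 of the 42 unigenes, and Interpro named a C-type lectin domain in 15 and a galactoside-binding domain in 8. The best Nr hit was a mollusc protein for 33, of which 12 were lectins of scallops. The 11 unigenes with no second lectin word were the 7 fucolectins and Unigene25761_All, Unigene24301_All, Unigene31110_All and Unigene18887_All. For Unigene24301_All the KEGG entry gives the same protein as Swiss-Prot, CD23, without one of the words.

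The summed reads of the lectins were 12497 in the control and 9591 after PA, which is 1213 and 921 RPM (reads scaled to equal library size) and a log2 ratio of -0.40. Galectin cluster CL5009 made up 58.7% of these reads in the control and 39.4% after PA. Without it, the other 40 lectins summed to 5156 and 5809 reads, a log2 ratio of 0.16 that turned to -0.09 under TMM and -0.06 under median of ratios. With CL5009 the ratio was -0.64 and -0.62 under these scalings. In bulk RNA, fewer cells of a type and less RNA per cell cannot be told apart.

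**Figure D2:**
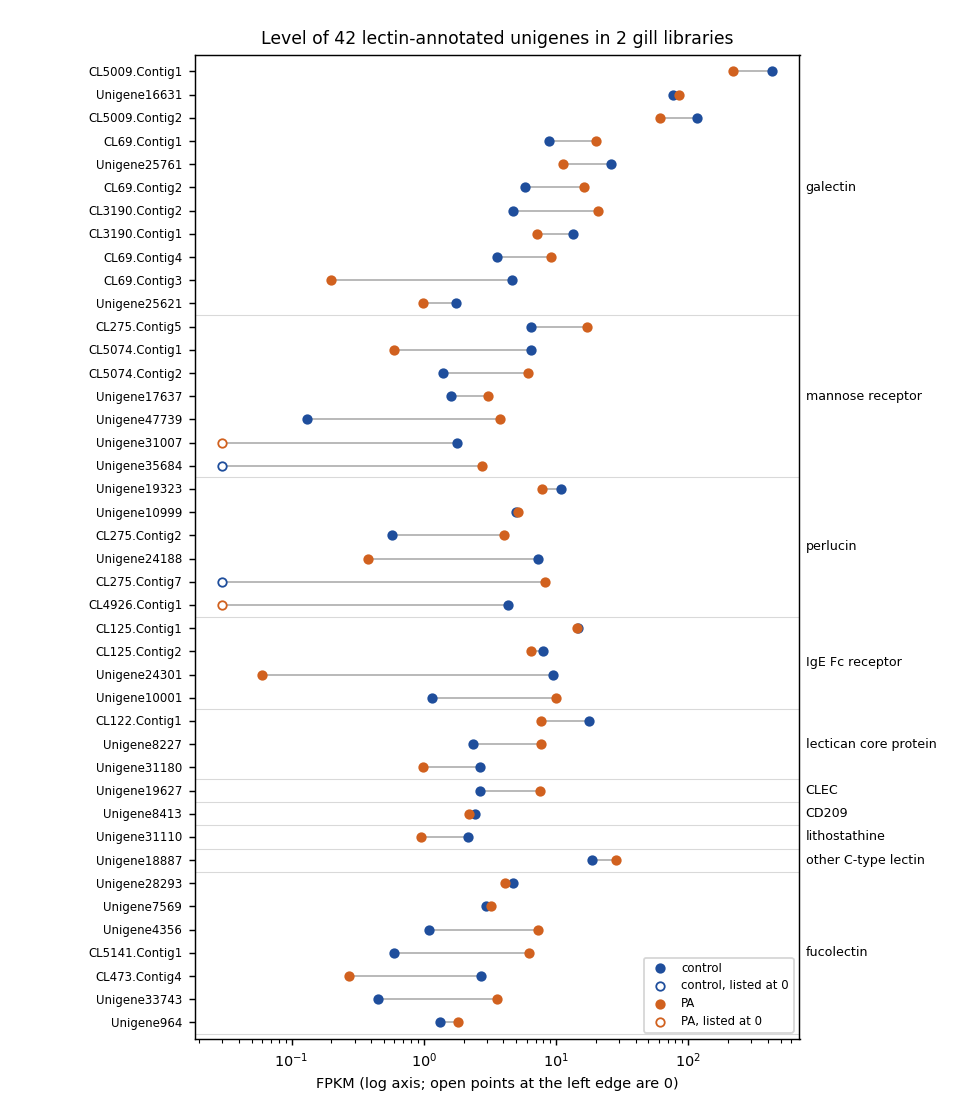
FPKM of the 42 lectin unigenes in the control (blue) and PA (orange) libraries on a log axis, grouped by Swiss-Prot description and ordered within a group by reads. Open points at the left edge stand for an FPKM of 0. CL5009.Contig1_All, at 431 and 218 FPKM, lay above every other lectin in both libraries.

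Galectins were the most abundant group, with 693 FPKM in the control and 451 after PA over 11 unigenes. Of these, 4 were higher (36.4%, against 13.3% of all), 2 lower (18.2%, against 10.7%) and 5 not called. The highest level belonged to CL5009, whose best Nr hit is a tandem-repeat galectin of the pearl oyster Pinctada fucata, that is, a galectin with more than 1 sugar-binding domain in a chain. CL5009.Contig1_All (1348 bp) held 5776 reads (431 FPKM) in the control and 2952 reads (218 FPKM) after PA. It ranked 169th of all unigenes by FPKM in the control and 260th after PA. Its log2 fold change was -0.98 (95% interval -1.05 to -0.92), just under the 2-fold limit, so it was not called although the exact test gave an FDR of 1.49e-208. CL5009.Contig2_All (1349 bp) went from 1565 reads to 830, a log2 fold change of -0.93 (-1.05 to -0.81), and was not called either. Both lay further from the median of all unigenes (-1.20 and -1.14 relative to it), and both were called lower under TMM and under median-of-ratios scaling.

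The second galectin by level was Unigene16631_All (2221 bp), whose best Nr hit is galectin 1 of the bay scallop itself. It held 1725 reads (76.9 FPKM) in the control library and 1942 (85.7 FPKM) after PA. The log2 fold change of 0.16 (0.06 to 0.25) was not called and turned to -0.09 under TMM and -0.06 under median of ratios. This galectin lay below both CL5009 contigs by FPKM in the control and above CL5009.Contig2_All (61.3 FPKM) after PA.

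Cluster CL69 went the other way. KEGG names galectin-9 for its 4 lectin contigs, and the best Nr hit of 3 of them is a galectin of the blood clam Tegillarca granosa, while that of CL69.Contig4_All is a hypothetical protein of the lancelet Branchiostoma floridae. CL69.Contig1_All rose from 261 reads to 597 (8.91 to 20.2 FPKM), a log2 fold change of 1.18 (0.97 to 1.39), though this call was lost under both other scalings. CL69.Contig2_All rose from 136 reads to 391 (1.51, interval 1.22 to 1.80), and CL69.Contig4_All from 38.9 to 100 reads (1.36, interval 0.80 to 1.92). CL69.Contig3_All, the shortest of these contigs at 750 bp, fell from 33.5 reads to 1.45, a log2 fold change of -4.53 with an interval from -10.4 to -2.48. Summed over its 5 contigs, the cluster held 470 reads in the control and 1091 after PA, a log2 ratio of 1.2 (1.04 to 1.36). The read sums of CL69 and CL5009 therefore differed in sign.

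CL3190 paired a galectin-3 hit in Swiss-Prot with galectin-4 of the Pacific oyster in Nr. CL3190.Contig2_All rose from 51 reads to 227, a log2 fold change of 2.14 (1.70 to 2.61). CL3190.Contig1_All went from 148 reads to 79.8, a log2 fold change of -0.90 (-1.31 to -0.50), not called on library totals and called lower under both other scalings. The contigs are 1098 and 1121 bp long and moved apart, while their sum of 199 and 307 reads differed by 0.61 (0.35 to 0.87).

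The other galectin hits were Unigene25761_All and Unigene25621_All. Unigene25761_All fell from 379 reads to 165 (26.2 to 11.3 FPKM), a log2 fold change of -1.21 (-1.49 to -0.95). Its KEGG hit is TMBIM1, a transmembrane protein and not a lectin, and its Swiss-Prot hit to galectin-3 has an E-value of 9e-07. Unigene25621_All, whose Nr hit is galectin 2 of the bay scallop, held 7 and 4 reads and lies outside the rule for named unigenes. It is 1 of 4 unigenes with that Nr hit, which together held 17 reads in the control and 4 after PA.

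**Figure D3:**
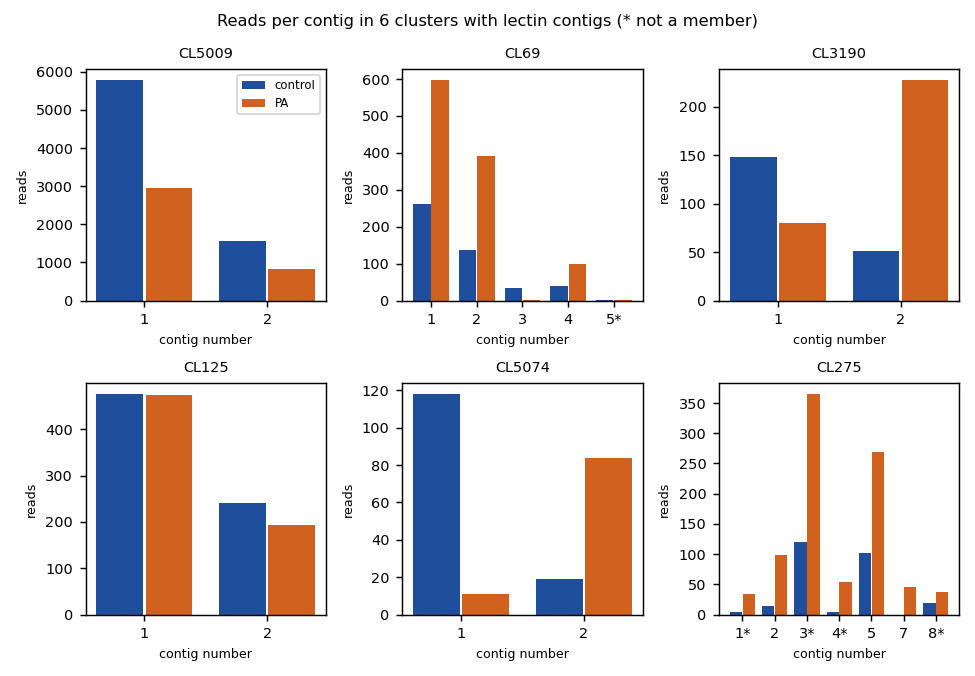
Expected counts (reads) of each contig in the control (blue) and PA (orange) libraries for the 6 clusters with more than 1 lectin contig. Both contigs of CL5009 had fewer reads after PA, the 7 contigs of CL275 all had more, and the contigs of CL3190 and of CL5074 differed in sign. Each panel has its own axis, and asterisks mark contigs without one of the words in Swiss-Prot.

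Among the 24 unigenes of the C-type lectin kind, that is, all but the galectins and fucolectins, 14 (58.3%, against 24.0% of all) were called, with 8 higher (33.3%, against 13.3%) and 6 lower (25.0%, against 10.7%). Their summed FPKM was 128 in the control and 146 after PA, and their summed reads were 2303 and 2182. The mannose receptor hits come first. In vertebrates the macrophage mannose receptor is an endocytic receptor with several C-type domains that takes up glycoproteins and microbes. Of 7 such unigenes, 3 were higher (42.9%, against 13.3% of all) and 2 lower (28.6%, against 10.7%). Their median log2 fold change was 1.40, against 0.21 for all unigenes.

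CL275.Contig5_All, described as macrophage mannose receptor 1, rose from 101 reads to 269 (6.52 to 17.2 FPKM), a log2 fold change of 1.40 (1.06 to 1.74). CL275.Contig2_All and CL275.Contig7_All of the same cluster carry the name perlucin-like protein, and all 3 have C-type lectin 5 of the scallop Azumapecten farreri as best Nr hit. CL275.Contig2_All rose from 13.9 reads to 99.1, a log2 fold change of 2.82 (1.99 to 3.73). CL275.Contig7_All was listed at 0 in the control and held 45.7 reads after PA, at least 15.1-fold higher against a floor of 3 reads. The interval of this contig reached down to a log2 fold change of 3.57, closer to no change than that bound. Both the bound and the interval take the division of reads between similar contigs of the cluster as given. The Swiss-Prot names differ within this cluster although these 3 contigs share 1 scallop lectin as their Nr hit. Over all 7 contigs CL275 held 260 reads in the control and 901 after PA, a log2 ratio of 1.78 (1.58 to 1.98), with 6 contigs called higher and 0 lower. The contig with the most reads, CL275.Contig3_All, has no Swiss-Prot entry and rose from 119 reads to 364 (1.60, interval 1.30 to 1.91); this contig was chosen with its values known.

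CL5074 carries mannose receptor names in Swiss-Prot and C-type lectin B of Azumapecten farreri in Nr. CL5074.Contig1_All (1822 bp) fell from 118 reads to 11.1, a log2 fold change of -3.42 (-4.48 to -2.55). CL5074.Contig2_All (1366 bp) rose from 19.1 reads to 83.9, a log2 fold change of 2.13 (1.40 to 2.93). The contigs thus exchanged order, and their sum of 137 and 95 reads differed by -0.54 (-0.94 to -0.16). RSEM divides reads between similar contigs by estimate, so the split is less certain than the sum. The same holds for CL69, CL3190, CL275, CL5009 and CL125.

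Unigene47739_All, whose best Nr hit is C-type lectin D2 of Azumapecten farreri, rose from 2 reads to 60 (0.13 to 3.79 FPKM), a log2 fold change of 4.87 with an interval from 2.98 to 7.97. Unigene31007_All, whose best Nr hit is CTL-9 of the bay scallop, held 16 reads in the control and 0 after PA, at least 5.39-fold lower. Its interval reached a log2 fold change of -1.96, closer to no change than that bound. The remaining mannose receptor hits, Unigene17637_All (22 and 42 reads) and Unigene35684_All (0 and 12 reads), were not called and lie outside the rule for named unigenes.

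Perlucin is a C-type lectin of mollusc nacre that was first described from abalone shell. Of 6 perlucin-like unigenes, 2 were higher (33.3%, against 13.3% of all), both from CL275, and 2 were lower (33.3%, against 10.7%). Unigene24188_All (1298 bp), which KEGG assigns to C-type lectin domain family 4 member E (CLEC4E) and Nr to perlucin of the Pacific oyster, fell from 95 reads to 5 (7.37 to 0.38 FPKM), a log2 fold change of -4.28 (-5.92 to -2.99). In mammals CLEC4E is a macrophage receptor for microbial glycolipids. CL4926.Contig1_All, with a C-type lectin B hit in Nr, held 38 reads in the control and 0 after PA, at least 12.8-fold lower against 3 reads, and the interval reached a log2 fold change of -3.31, closer to no change. Unigene19323_All was the perlucin-like unigene with the most reads, 239 and 174, and its log2 fold change of -0.47 (-0.76 to -0.19) was not called. Unigene10999_All, which KEGG also assigns to CLEC4E, held 64 and 67 reads, with a value of 0.05 (-0.47 to 0.57) that turned to -0.19 under TMM and -0.17 under median of ratios.

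**Figure D4:**
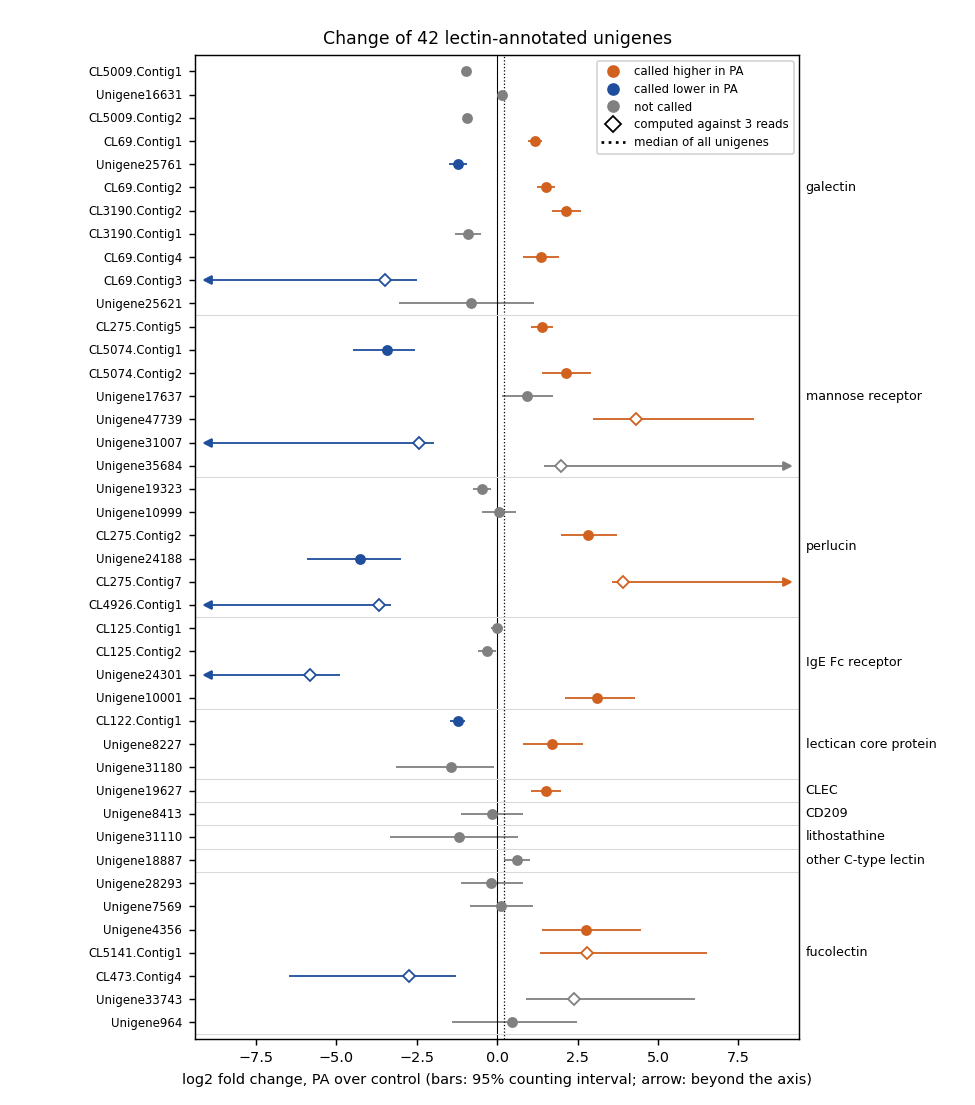
Log2 fold change of the 42 lectin unigenes, PA over control, with 95% counting intervals, in the order of the plot of levels. Orange points were called higher, blue lower and grey not called. Diamonds mark unigenes with 3 reads or fewer in a library, drawn against 3 reads, and the dotted line is the median of all unigenes. The called unigenes lay on both sides within the galectin, mannose receptor and perlucin groups. CL69.Contig1_All, Unigene8227_All and CL5141.Contig1_All lost their call under the other scalings, and CL5009.Contig1_All, CL5009.Contig2_All and CL3190.Contig1_All gained one.

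The low affinity immunoglobulin epsilon Fc receptor (CD23) is a C-type lectin of vertebrate B cells that binds IgE, an antibody bivalves do not make, so this name marks domain likeness. Of 4 such unigenes, 1 was higher (25.0%, against 13.3% of all) and 1 lower (25.0%, against 10.7%). CL125.Contig1_All (3190 bp) held 475 and 474 reads, a log2 fold change of -0.02 (-0.20 to 0.17), and CL125.Contig2_All 240 and 194 reads, a value of -0.32 (-0.60 to -0.04). On library totals the whole cluster differed by -0.11 (-0.27 to 0.04), an interval within 0.27 of no change on the log2 scale. This turned on the scaling. The contigs stood at -0.26 and -0.56 under TMM, and at -0.24 and -0.54 under median of ratios. Unigene10001_All (804 bp, KEGG hit perlucin-like protein) rose from 9 reads to 78, a log2 fold change of 3.10 (2.10 to 4.28). Unigene24301_All (1739 bp) fell from 167 reads to 1 (9.57 to 0.06 FPKM), a log2 fold change of -7.32 with an interval from -12.7 to -4.90. KEGG names CD23 for this unigene as Swiss-Prot does, the latter with an E-value of 1e-06. Interpro gives it a PAN domain, and its Nr hit is a protein with CUB and EGF-like domains. It was also the only lectin call that remained when the coefficient of variation between pools was set at 0.4.

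Lecticans are proteoglycans of vertebrate matrix whose end holds a C-type domain. CL122.Contig1_All, described as versican, fell from 486 reads to 210 (17.8 to 7.64 FPKM), a log2 fold change of -1.22 (-1.47 to -0.99). Unigene8227_All, described as brevican and in Nr as a macrophage mannose receptor, rose from 14 reads to 46, a value of 1.71 (0.81 to 2.68) whose call was lost under both other scalings. Unigene31180_All, the second versican hit, held 16.7 and 6.18 reads and was not called.

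The remaining C-type names each had 1 unigene. Unigene19627_All, described as CLEC4K, the langerin of mammalian Langerhans cells, rose from 53 reads to 152 (2.68 to 7.60 FPKM), a log2 fold change of 1.50 (1.04 to 1.98). Unigene8413_All, described as CD209, a dendritic cell receptor for mannose-rich sugars in mammals, held 21 and 19 reads. Lithostathine, a secreted protein of the mammalian pancreas, named Unigene31110_All with 9 and 4 reads. Unigene18887_All, named after a Caenorhabditis elegans C-type lectin but with an EGF-like domain in Interpro, held 84 and 129 reads (18.7 and 28.5 FPKM), a log2 fold change of 0.61 (0.20 to 1.02). The last 3 were not called. The single collectin hit, described as collectin-12, held 0.1 and 1.23 reads and did not reach 10. Its Nr and KEGG hits are collagens, and Interpro gives it a collagen repeat and no lectin domain.

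Fucolectins are fucose-binding lectins known from eel serum. The 7 fucolectin hits were short (375 to 769 bp) and low, with 74.5 reads in the control and 120 after PA together. Unigene4356_All rose from 5 reads to 34, a log2 fold change of 2.75 (1.39 to 4.46). CL5141.Contig1_All rose from 2 reads to 21, a value of 3.38 with an interval from 1.34 to 6.51, and lost its call under both other scalings. CL473.Contig4_All fell from 20 reads to 2, a value of -3.32 with an interval from -6.48 to -1.30. The other 4 were not called. Unigene28293_All held 21.5 and 19 reads, and Unigene7569_All 19 and 21, with a value of 0.13 that turned to -0.11 and -0.09 under the other scalings. Unigene33743_All (2 and 16 reads) and Unigene964_All (5 and 7 reads) lie outside the rule for named unigenes.

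The fucolectin name was seldom repeated in words in the other columns. KEGG named a receptor-type tyrosine-protein phosphatase for 6 of the 7, and 0 of 7 had a lectin word in another column. That count rests on words alone. Interpro gave Unigene964_All an F5/8 type C domain, and its Nr hit is a pentraxin fusion protein. For most of the others Interpro gave a family entry without a description. Interpro named a fucolectin domain for CL473.Contig7_All, a fucolectin hit of CL473 with under 10 reads. In both clusters CL5141 and CL473, other contigs were described as scavenger receptors of class F. Some of CL5141 were described as cell death abnormality protein 1, a phagocytic receptor first known from Caenorhabditis elegans. Some of CL473 were described as platelet endothelial aggregation receptor 1. CL5141 as a whole held 151 and 971 reads (2.67, interval 2.42 to 2.93), of which its fucolectin contig held 2 and 21. CL473 as a whole held 25 and 108 reads (2.10, interval 1.46 to 2.79), while its fucolectin contig fell.

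**Figure D5:**
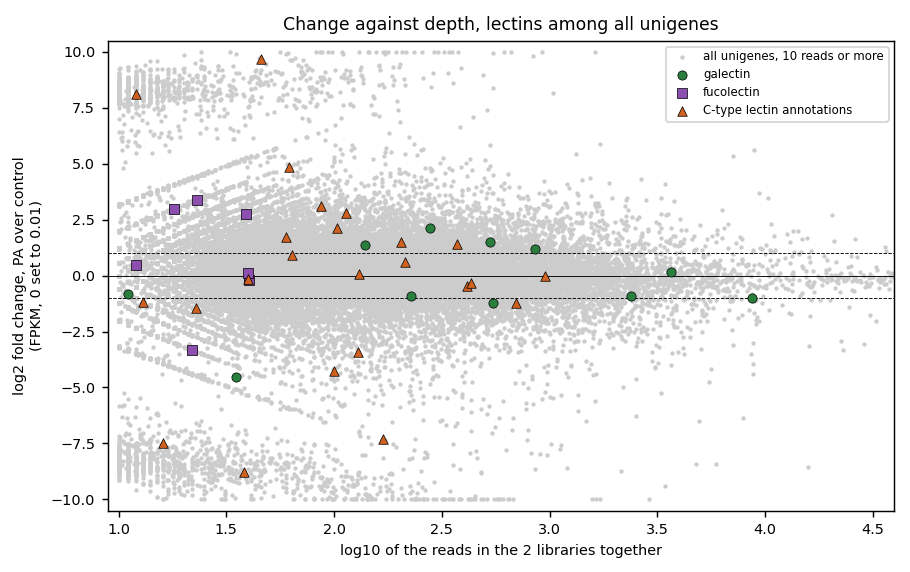
Log2 fold change (PA over control, FPKM of 0 set to 0.01) against log10 of the reads in the 2 libraries together, for all unigenes with at least 10 reads (grey), galectins (circles), fucolectins (squares) and C-type lectin names (triangles). Dashed lines mark a fold change of 2, values beyond 10 are drawn at the edge, and the few unigenes with more reads than the axis holds are not drawn. The deepest lectin, CL5009.Contig1_All, lay at the lower dashed line with 8728 reads, and all 7 fucolectins lay among the unigenes with few reads.

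Grouping by Nr hit, done after the values were seen, gathered unigenes that Swiss-Prot names apart. Of 8 unigenes with C-type lectin 5 of Azumapecten farreri as best hit, 3 were among the 42 lectins. There were 6 called higher (75.0%, against 13.3% of all) and 0 lower (against 10.7%), and the sum went from 170 reads to 728. All 8 had a log2 fold change above 0, the lowest at 0.96 and the median at 2.74. Of the 8, 5 belonged to CL275, so they are not independent. Of the 8 unigenes with at least 10 reads and a C-type lectin B hit, 1 was higher (against 13.3% of all), 2 were lower (against 10.7%) and 5 were not called. The sum over all 9 unigenes with that hit was 472 and 349 reads. The 3 unigenes with a CTL-9 hit held 25 reads in the control and 1 after PA.

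Unigenes found by words for other sugar-binding proteins, outside the words that chose the lectins, also moved in both directions. Of 36 such unigenes with at least 10 reads, 10 were higher (27.8%, against 13.3% of all) and 9 lower (25.0%, against 10.7% of all), with a median log2 fold change of 0.39. Under either other scaling 8 were higher (22.2%) and 10 lower (27.8%). Of all unigenes, 10% were higher and 14.0% lower under TMM, and 10.4% and 13.7% under median of ratios. Both contigs described as ficolin-2 (CL1174) fell, from 525 to 127 reads together. In vertebrates ficolin-2 binds acetylated sugars of microbes and starts the lectin pathway of complement. CL1174.Contig2_All stood at -2.22, the same change that the study lists for a fibrinogen C domain-containing protein. Of the 4 rhamnose-binding lectins, Unigene3737_All fell from 403 reads to 60 (-2.76, interval -3.18 to -2.37) and Unigene32457_All rose from 1 to 19 (4.26, interval 1.58 to 9.61). The hemagglutinin/amebocyte aggregation factor Unigene38057_All rose from 0 reads to 25. The word pentraxin gave 14 of these 36 unigenes, with 6 of the 10 higher and 3 of the 9 lower. All 14 were described as SVEP1, a large matrix protein with a pentraxin domain. The word alone does not make them sugar-binding, so the shares of this list are not those of lectins alone. CL1147.Contig1_All, 1 of the 6, lost its call under both other scalings.

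Intracellular lectins of glycoprotein folding and sorting completed that list. Calreticulin (Unigene20952_All) held 2674 and 3353 reads, a log2 fold change of 0.31 (0.24 to 0.39), and was not called. Of the 2 calnexin contigs 1 was higher, a call lost under both other scalings, and 1 lower. Of 7 mannose-6-phosphate receptor unigenes, which deliver enzymes to lysosomes, 1 was higher (against 13.3% of all) and 2 were lower (against 10.7%). In addition, Unigene20940_All (-0.78) was called lower under both other scalings. Malectin, ERGIC-53, VIP36 and the 2 kept unigenes of protein OS-9 were not called, and no unigene was described as an intelectin, a tachylectin, a C-reactive protein or a sialic acid-binding lectin.

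For the lectin pathway and microbe recognition, 8 unigenes were kept. Under all 3 scalings 4 were higher (against 13.3% of all on library totals) and 0 lower. All 4 were peptidoglycan recognition proteins, which bind bacterial cell wall, of 6 kept. Among them Unigene14343_All rose from 52 reads to 550 (3.39, interval 2.98 to 3.83) and Unigene4733_All from 1266 to 4402 (1.78, interval 1.69 to 1.87). The 2 unigenes of complement C3 were not called, with 531 and 637 reads together. No unigene was described as a mannan-binding lectin serine protease, complement factor B or a beta-1,3-glucan-binding protein. Of the kinases and adaptors downstream of mammalian C-type lectin receptors, BCL10, both MALT1 contigs and protein kinase C delta were kept and 0 of the 4 were called. Their log2 fold changes lay between 0.11 and 0.48, and those of protein kinase C delta and 1 MALT1 contig turned below 0 under both other scalings. SYK and SRC held under 10 reads, and CARD9 was not among the descriptions.

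Markers of the gill's cell types differed between the libraries too. On library totals their counts are to be read against 13.3% higher and 10.7% lower of all unigenes. The marker counts under TMM are to be read against 10% higher and 14.0% lower, and those under median of ratios against 10.4% and 13.7%. Haemocytes are the circulating immune cells of bivalves. Their markers summed to 798 FPKM in the control and 508 after PA over 12 unigenes, of which 2 were higher (16.7%) and 7 lower (58.3%). Both allograft inflammatory factor 1 unigenes, 4 of 5 granulins and the runt-related factor fell, while 1 of 2 haemocyte transglutaminases and 1 of 2 defensins rose. No unigene was described as PU.1. Ciliated markers summed to 359 and 855 FPKM, with 19 of 76 higher (25.0%) and 0 lower, and 14 (18.4%) were higher under either other scaling. Mucus cell markers summed to 891 and 630 FPKM, with 14 of 68 higher (20.6%) and 12 lower (17.6%). These became 11 (16.2%) and 16 (23.5%) under either other scaling. Muscle markers summed to 1350 and 1305 FPKM, with 7 of 39 higher (17.9%), 5 lower (12.8%) and twitchin under 10 reads. The muscle counts became 5 higher (12.8%) and 6 lower (15.4%) under TMM, and 6 (15.4%) and 6 (15.4%) under median of ratios. The part of these differences in the lectin values was not tested.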

How the data were processed

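Gill RNA of control and PA-exposed scallops was sequenced with 1 library per condition, assigned by sample title. The authors assembled the reads with Trinity 2.0.6, mapped them with Bowtie 2.2.5 and estimated expression with RSEM 1.2.12 (versions from the study's methods), and deposited an expected count and an FPKM value per unigene with 7 annotation columns. Their comparison table also holds fold changes, p-values, FDR values and a direction, which were not used. It served for annotation alone.

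The log2 fold change was the ratio of FPKM, with 0 set to 0.01. The expected counts were rounded to whole numbers for the two-sided exact test of Audic and Claverie, taken from the study's methods, with Benjamini-Hochberg adjustment over 60308 unigenes. An edgeR quasi-likelihood fit needs replicates and could not be made. Intervals are 95% Clopper-Pearson intervals. Against a library at 0, a fold was computed against 3 reads and takes the other library's reads as exact. The calling was tested on simulated libraries of 60308 unigenes without variation between pools, in which 196 of 200 unigenes with at least 100 reads changed 4-fold were recovered and 0 unchanged ones were called.

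Named unigenes were, per group of names, the 3 with the most reads and up to 3 called rises and 3 called falls by size. Added to these were the unigene matched to the study's CLEC4E, lectin contigs of the clusters of named unigenes, and all members of groups of 5 or fewer. This gave 37 of the 42. The rule also held the study's CLEC4F, whose match, Unigene22718_All, has no Swiss-Prot entry and is not among the 42. Members, lists and rules were chosen with earlier results of these data known. Alternatives were the scaling, the minimum of reads, the pseudocount, the thresholds, an assumed variation between pools in the exact test of edgeR, summing of clusters and the annotation rule. After seeing the data, words in the other annotation columns and the scaling of the lists beside the lectins were added. The files hold no sequence, and 0 lectin unigenes matched a table of 32407 RefSeq genes of the bay scallop, so no sequence is shown. R 4.3.3 ran edgeR 4.0.16. All other steps ran in Python 3.11.15 (scipy 1.17.1, numpy 2.4.6, matplotlib 3.10.9, pandas 2.3.3).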

Additional observations from a re-analysis of the deposited data

How the results depend on the processing

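No paired analysis was possible because each condition had 1 library, and for the same reason no replicate could be left out. Pseudocounts of 0.1 and 1 FPKM and the ratio of expected counts kept 23 of the 23 calls in the same direction. TMM and median of ratios each shared 20 calls, lost 3 and added 3. An FDR of 0.05 gave 25 calls, 23 of them shared. A fold change of at least 4 left 15 calls, 8 of them higher. The share of all unigenes called is not given for that FDR or that fold change. The exact test of edgeR left 10 calls (5 higher and 5 lower; 9.82% of all unigenes) when the coefficient of variation between pools was set at 0.2, and with 0.4 it left 1 call, 0 higher and 1 lower (1.60% of all). The variation between scallop pools was not measured. With at least 50 reads 5 unigenes were lower. With the contigs of clusters summed there were 15 calls, 8 higher, with no share of all given for such sums. With words from Nr, KEGG and Interpro too, an alternative added after seeing the data, there were 44 calls, 30 higher and 14 lower.

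The median log2 fold change of 0.09 became -0.15 under TMM, -0.13 under median of ratios, 0.61 with no minimum of reads, 0.38 with at least 50 reads, 0.31 with a Swiss-Prot E-value of at most 1e-10 and 0.59 with words from the other columns. Under TMM and median of ratios the signs turned for Unigene7569_All (-0.11 and -0.088), Unigene16631_All (-0.087 and -0.063) and Unigene10999_All (-0.19 and -0.17). With clusters summed, the cluster of CL3190.Contig1_All stood at 0.61, that of CL69.Contig3_All at 1.2 and that of CL5074.Contig2_All at -0.54. Scaling shifts every value alike and summing merges reads, and no other cause was tested. Depth limits the fucolectins, where a few reads in a library decide a value.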

Other observations

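A further 52 unigenes with at least 10 reads carried one of the lectin words only in Nr, KEGG or Interpro, and 11 of them had no Swiss-Prot entry. Of these 52, 16 were higher (30.8%, against 13.3% of all unigenes), 5 were lower (9.62%, against 10.7%) and 31 were not called, with a median log2 fold change of 0.96, and several are proteins of other kinds by their Swiss-Prot names, such as annexin A7, semaphorins and contactin. Unigene22718_All, which was matched to the study's CLEC4F by its KEGG entry and direction, held 79 reads in the control and 0 after PA. Unigene6364_All (833 bp), with a macrophage mannose receptor as its Nr hit, fell from 1576 to 305 reads. Together with the 42 lectins these make 94 unigenes, of which 44 were called, 30 higher and 14 lower, where 24.0% of all unigenes were called. These values were picked out after they were seen.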
